A study of Mus musculus with 9 samples.

Results

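The testis-specific serine kinases are the 6 genes Tssk1, Tssk2, Tssk3, Tssk4, Tssk5 and Tssk6, taken by gene symbol out of 19935 measured genes. The study hybridised RNA of the entire testis from untreated male Swiss albino mice of an inbred line, aged 8, 16 or 24 days, to 9 arrays, 3 for each age. The design text calls the 3 arrays of an age biological replicates, and it names the comparisons of 16 with 8, 24 with 16 and 24 with 8 days. The arrays numbered 1 and 2 in the labels are called replicates 1 and 2 here, and the unnumbered array of an age is called replicate 3. Adjacent comparisons share the 16 day arrays and are not independent of each other. Each of the 6 genes was measured by 1 row of the array. Values are on a log2 scale on which 0 is the gene's own median of the 9 arrays. They give differences between ages but no level, and no gene's level can be set against another's. All arrays are of testis, so restriction to this organ, which gives the family its name, was not examined.

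Testis-specific serine kinases are small serine-threonine kinases of the calcium/calmodulin-dependent kinase group, made mainly in haploid germ cells, the spermatids, after meiosis. They act during spermiogenesis, when a round spermatid condenses its chromatin and builds an acrosome and a flagellum, and male mice that lack some of them are infertile. During the first wave of spermatogenesis germ cells advance together, so that spermatogonia, spermatocytes and then spermatids become the most advanced cells present.

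Between 16 and 24 days 5 of the 6 kinase genes rose, by 1.57-fold to 7.01-fold, and between 8 and 16 days none passed the test. Tssk1, Tssk2, Tssk4 and Tssk3 rose most, Tssk5 rose less, and Tssk6 did not pass the test in any comparison. Because the RNA came from the entire organ, more cells of a type and more RNA per cell cannot be told apart. Of all genes tested, 13.2% rose and 20.1% fell between 16 and 24 days at a limma adjusted p under 0.05. Between 8 and 16 days 0 of the 6 were called, and 0 at an unadjusted p under 0.05, where 24.7% of all genes were called in either direction.

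**Figure D1:**
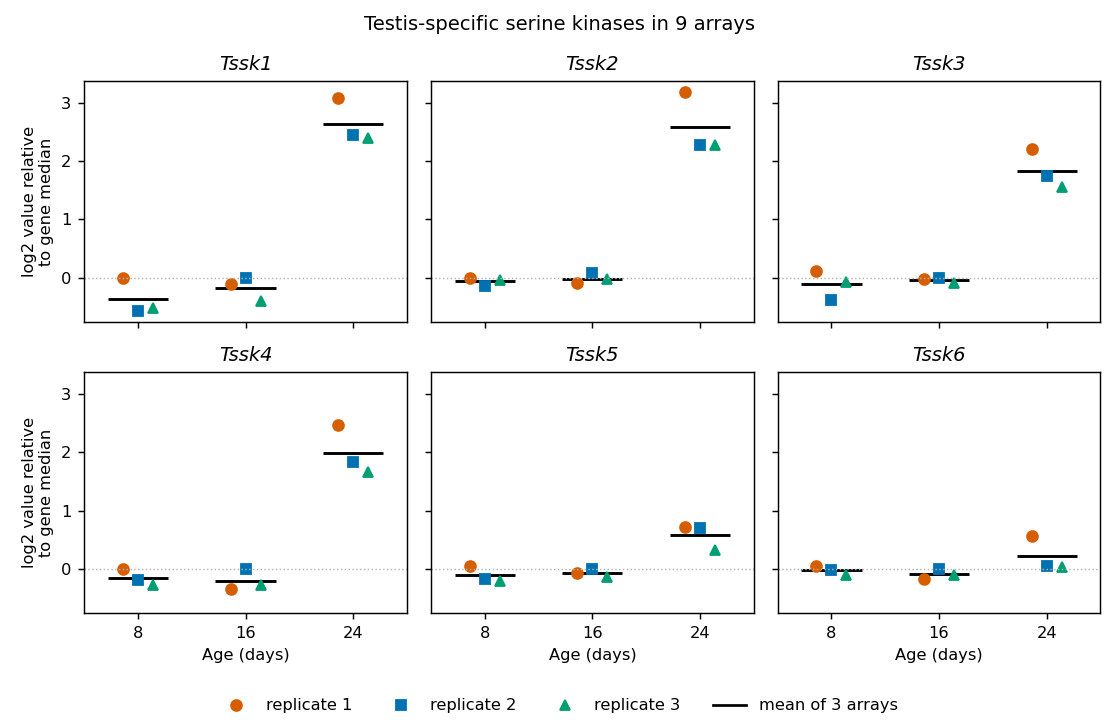
Values of the 6 kinase genes in each of the 9 arrays (y axis: log2 value relative to the gene's median; x axis: age in days), with symbols for the 3 replicates and a bar for the mean of 3 arrays. The 8 and 16 day values overlap in every gene, and replicate 1 of 24 days is the highest array in each gene.

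Tssk1 (gene ID 22114), which with Tssk2 is needed for the late shaping of the spermatid, had values of 0.00, -0.57 and -0.51 in replicates 1, 2 and 3 at 8 days. At 16 days its values were -0.11, 0.00 and -0.40, and at 24 days they were 3.08, 2.44 and 2.40. The 8 and 16 day arrays overlapped only through the 0.00 at 8 days, a blank cell read as 0. The 24 day arrays lay above all of them. Tssk1 rose by 2.81 ± 0.21 on the log2 scale between 16 and 24 days (standard error, 3 arrays per age, limma adjusted p 1.31e-05), the 175th largest of the changes of all 19935 genes counted from the largest rise. From 8 to 16 days its change was 0.19 ± 0.21 (adjusted p 0.669).

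Tssk2 (gene ID 22115) had values of 0.00, -0.15 and -0.03 at 8 days, and of -0.09, 0.08 and -0.03 at 16 days. Its values at 24 days were 3.19 in replicate 1 and 2.28 in each of the other arrays. Tssk2 therefore showed the same order as Tssk1, with both early ages near the gene's median and the last age far above it. It rose by 2.60 ± 0.21 after 16 days (adjusted p 2.11e-05), and its change before 16 days was 0.04 ± 0.21 (adjusted p 0.960).

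Tssk1 and Tssk2 lie next to each other on chromosome 16, on the same strand, with starts 4434 bases apart in RefSeq (GRCm38.p6). The bases just before the starts are shown because these neighbours had the largest rises of the family and Tssk6 the smallest change. Each is the 100 bases before the annotated start, written in the direction of transcription. Capitals mark the letters TGACTTCA, a variant of the cAMP response element, read on either strand. The windows are chr16:17894103-17894202 for Tssk1 and chr16:17898537-17898636 for Tssk2, both on the plus strand, and chr8:69902084-69902183 on the plus strand for Tssk6.
Tssk1: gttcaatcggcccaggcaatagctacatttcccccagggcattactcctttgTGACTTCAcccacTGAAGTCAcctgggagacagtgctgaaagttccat
Tssk2: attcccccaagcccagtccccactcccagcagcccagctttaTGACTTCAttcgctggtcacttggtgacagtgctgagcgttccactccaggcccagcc
Tssk6: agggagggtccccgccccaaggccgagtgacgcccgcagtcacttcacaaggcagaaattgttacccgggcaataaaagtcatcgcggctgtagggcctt

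In Tssk1 the marked letters run from 48 to 41 bases before the start, and again on the other strand from 35 to 28 bases before it. In Tssk2 they run from 58 to 51 bases before the start. The longest run of letters that the Tssk1 and Tssk2 windows share is GACAGTGCTGA, 11 bases, which begins 20 bases before the start of Tssk1 and 33 bases before that of Tssk2. Among the other 9 pairs of the 5 kinase genes with a RefSeq promoter the longest shared run was 5 to 7 bases. The letters TGACTTCA, chosen after the sequences were seen, are held by 1.31% of 32851 RefSeq promoters (250 bases before the start, either strand). They are held by 1.15% of the promoters of measured genes and by 1.58% of the 2779 promoters of genes that rose between 16 and 24 days, and they have no match in the 250 bases before Tssk3, Tssk4 or Tssk6. These matches describe letters and do not show binding.

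The other motifs searched in the same 250 bases, on both strands, matched in 0 to 2 of the 5 promoters, and most are common in promoters. The full cAMP response element TGACGTCA, held by 1.55% of promoters, has no match in any of the 5. Its core TGACG, which is part of the full element, is held by 17.8% of promoters and matched once, in Tssk6, from 73 to 69 bases before the start. Tssk6 also has the GC box GGGCGG at 2 places, which 32.7% of promoters, and 45.5% of those of measured genes, hold at 1 place or more. The CCAAT box, held by 33.8%, matched in Tssk3 and Tssk4, and the SOX core ACAAT, held by 27.7%, matched in Tssk3 and Tssk6. In Tssk3 the CCAAT box, read on the opposite strand from 41 to 37 bases before the start, overlaps the ACAAT from 44 to 40. Neither TATAAA, held by 12.4%, nor the RFX core GTTGCC, held by 10.4%, has a match in the 5.

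Tssk4 (gene ID 71099), whose loss disturbs the structure of the sperm flagellum, had values of 0.00, -0.18 and -0.27 at 8 days and of -0.35, 0.00 and -0.28 at 16 days. At 24 days they were 2.46, 1.83 and 1.67. Both values of 0.00 are blank cells read as 0. The early ages overlapped only through the blank at 16 days, and the last age stood apart. Tssk4 rose by 2.20 ± 0.19 (4.58-fold, adjusted p 3.49e-05) after a change of -0.06 ± 0.19 over the first interval.

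Tssk3 (gene ID 58864), a kinase of spermatids, had values of 0.12, -0.39 and -0.07 at 8 days and of -0.03, 0.00 and -0.09 at 16 days. Its values at 24 days were 2.21, 1.75 and 1.56. The wider spread at 8 days enclosed all 3 values of 16 days, and the 24 day arrays were again all higher. Tssk3 rose by 1.88 ± 0.17 (3.68-fold, adjusted p 5.26e-05), against 0.07 ± 0.17 before 16 days.

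Tssk5 (gene ID 73542) moved less. Its values were 0.05, -0.17 and -0.21 at 8 days and -0.06, 0.00 and -0.15 at 16 days, and they reached 0.72, 0.70 and 0.32 at 24 days. The lowest 24 day array was still above every earlier one. Tssk5 rose by 0.65 ± 0.12 (1.57-fold, adjusted p 0.00400), and it did not pass a test against a change of 1.5-fold (limma treat, adjusted p 1).

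Tssk6 (gene ID 83984), whose loss leaves sperm with poorly condensed DNA, had values of 0.05, -0.02 and -0.11 at 8 days and of -0.17, 0.00 and -0.10 at 16 days. At 24 days it was 0.56 in replicate 1, 0.05 in replicate 2 and 0.04 in replicate 3. The last age lay above 16 days in every array, but replicates 2 and 3 stood near the median, and replicate 3 was below replicate 1 of 8 days, so that 24 and 8 days overlapped. The change after 16 days was 0.31 ± 0.14 (adjusted p 0.109). Leaving out replicate 1 of 24 days lowered it to 0.13 (adjusted p 0.345). Values centred on the median do not show whether Tssk6 was above background on these arrays.

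**Figure D2:**
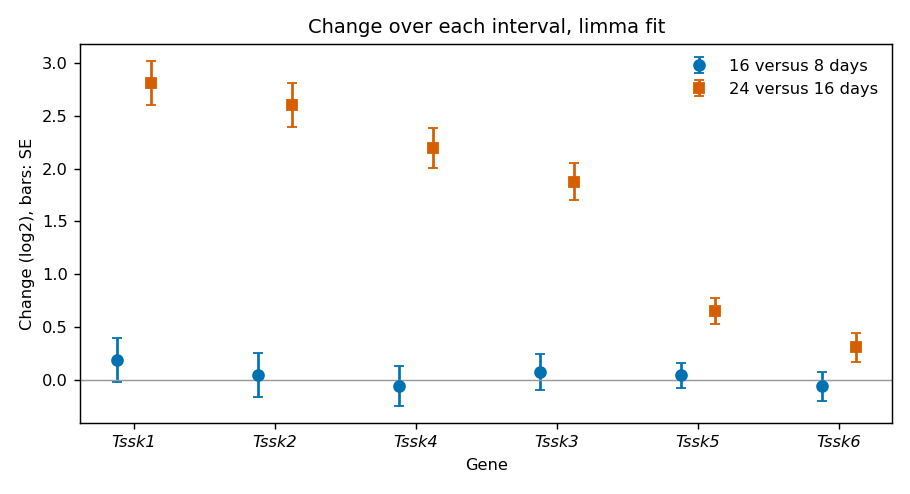
Change of each kinase gene over the first interval (circles, 16 versus 8 days) and over the second (squares, 24 versus 16 days) on the log2 scale, with limma standard errors, in order of the second. All 6 first-interval changes lie between -0.06 and 0.19, and second-interval changes run from 2.81 for Tssk1 to 0.31 for Tssk6.

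Over the whole span from 8 to 24 days the same 5 genes rose, by 2.999 ± 0.21 for Tssk1, 2.65 ± 0.21 for Tssk2, 2.14 ± 0.19 for Tssk4, 1.95 ± 0.17 for Tssk3 and 0.69 ± 0.12 for Tssk5. Of all genes, 19.2% rose over this span. The change of Tssk6 was 0.24 ± 0.14 (adjusted p 0.162, and 0.0331 with array weights). In the 5 genes that rose, 93.7% to 103% of the difference between the 8 and 24 day means arose after 16 days. The change of the second interval exceeded that of the first in 4 genes by limma's test of the difference itself, in which 3.06% of all genes were called in that direction. This difference was 2.62 ± 0.36 for Tssk1 (adjusted p 0.00193), 2.56 ± 0.36 for Tssk2, 2.25 ± 0.33 for Tssk4 and 1.80 ± 0.30 for Tssk3 (adjusted p 0.00560). The call of Tssk3 was lost against a change of 1.5-fold (limma treat, adjusted p 0.0511) and on the 6 numbered arrays alone (adjusted p 0.0545). For Tssk5 the difference was 0.61 ± 0.21 (adjusted p 0.174) and for Tssk6 0.37 ± 0.24 (adjusted p 0.512).

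The arrays of 24 days did not overlap with those of 16 days and were higher in all 6 genes, where this held for 16.5% of all genes. Between 24 and 8 days it held for 5 of the 6, against 20.5% of all genes. Between 16 and 8 days the ages overlapped in all 6, and 36.2% of all genes had no overlap in either direction.

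The estimated size of the change after 16 days varied between the kinases, though no difference between a pair could pass a test. In order of that change they were Tssk1, Tssk2, Tssk4, Tssk3, Tssk5 and Tssk6. To compare them, the value of 1 gene was subtracted from that of another within each array, and the 24 and 16 day arrays were compared over all 15 pairs. In 14 pairs the differences of the 2 ages did not overlap. Each had an exact 2-sided permutation p of 0.1, the smallest that 3 against 3 arrays allow (0.107 adjusted over the 15 pairs). The pairs share genes and are not independent of each other, and the share among pairs of all genes was not computed. Tssk1 minus Tssk2 was the pair that overlapped, with a difference of 0.05 ± 0.14 at 24 days and -0.16 ± 0.19 at 16 days (SD, n = 3, exact permutation p 0.3). Its change of 0.21 was therefore of the size of the spread between arrays. Of the other neighbours in the order, the change of Tssk2 was larger than that of Tssk4 by 0.40, that of Tssk4 larger than that of Tssk3 by 0.32 and that of Tssk3 larger than that of Tssk5 by 1.23. Between 24 and 8 days 13 of the 15 pairs did not overlap, and Tssk4 minus Tssk3 overlapped as well, with a change of 0.19 (exact permutation p 0.3). The change of Tssk5 was larger than that of Tssk6 by 0.34, with a spread of 0.25 (SD, n = 3) between the arrays of 24 days. Each gene was measured by 1 row, so a difference between genes and one in the response of their rows cannot be told apart.

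All 6 kinases were highest at 24 days in replicate 1. Its lead over the next array was 0.63 for Tssk1, 0.90 for Tssk2, 0.46 for Tssk3, 0.63 for Tssk4, 0.02 for Tssk5 and 0.51 for Tssk6. All 8 markers of elongating spermatids (among them protamines and transition proteins) were also highest in that array. So were 6 of 8 round spermatid markers, 4 of 8 pachytene spermatocyte markers and 7 of 13 genes for chaperones, substrates and partners. None of the 8 Sertoli cell or 8 spermatogonial markers was highest there. Replicate 1 was the highest array of 24 days in 68.7% of the 2641 genes that rose after 16 days and in 27.9% of all genes. Without it, the rises were 2.59 for Tssk1, 2.30 for Tssk2, 1.96 for Tssk4, 1.69 for Tssk3 and 0.58 for Tssk5, and the limma adjusted p of these 5 lay between 9.00e-07 and 0.0213. The part of spermatid content in the spread between the 24 day arrays was not tested.

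**Figure D3:**
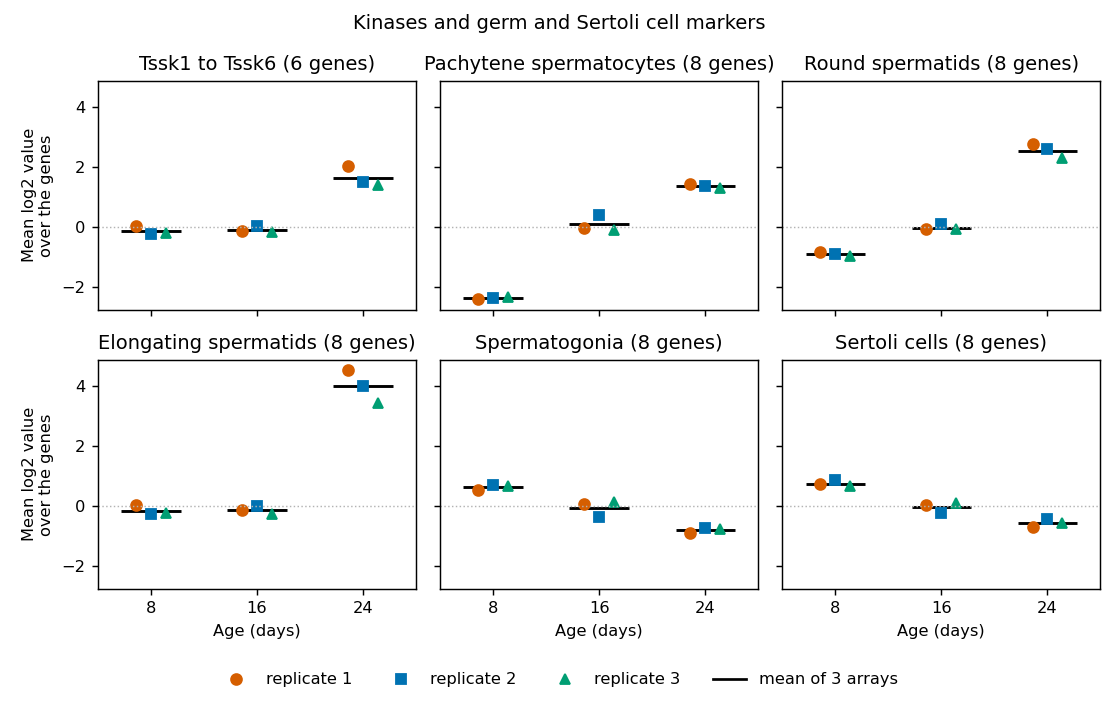
Mean log2 value over the 6 kinase genes and over marker genes of 5 cell types in each array (x axis: age in days), with symbols for replicates and a bar for the mean of 3 arrays. The kinases stay between -0.25 and 0.04 at 8 and 16 days and reach 1.38 to 2.04 at 24 days. At that age the round spermatid markers reach 2.29 to 2.75 and the elongating spermatid markers 3.42 to 4.52. Lists are named by cell type, and which cells held the RNA was not examined.

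Markers of germ cell stages moved at different ages. The 8 pachytene spermatocyte markers averaged -2.42 to -2.36 over the arrays of 8 days, -0.10 to 0.40 at 16 days and 1.30 to 1.42 at 24 days, so that 7 of 8 had risen by 16 days. The 8 round spermatid markers averaged -0.97 to -0.83, -0.08 to 0.08 and 2.29 to 2.75, and 4 of them had risen by 16 days. Between 8 and 16 days 10.4% of all genes rose. Neither the pachytene nor the round spermatid list was uniform. By limma's test of the difference between the intervals, 5 of 8 round spermatid markers changed more after 16 days and 2 more before it. Of the 8 pachytene markers 1 changed more after 16 days and 4 more before it. Of all genes, 3.06% and 2.31% were called in these directions. The 8 elongating spermatid markers averaged -0.28 to 0.02 at 8 days, -0.28 to 0.00 at 16 days and 3.42 to 4.52 at 24 days, with 0 that rose by 16 days and 8 afterwards. Their median change after 16 days was 3.97. It was 2.74 for the round spermatid markers, of which 7 of 8 rose, and 0.82 for the pachytene markers, of which 5 of 8 rose. The median was 2.04 for the 6 kinases and -0.16 for all genes. Over the same interval 13.2% of all genes rose and 20.1% fell. Of the markers, 8 of 8 spermatogonial and 6 of 8 Sertoli cell ones fell. Of the others, 3 of 6 peritubular myoid, 2 of 5 endothelial and 0 of 5 macrophage markers fell. Of 5 Leydig cell markers 1 rose and 1 fell. The marker lists are named by cell type from textbook knowledge, and which cells held these transcripts was not examined. The part of cell content in the changes of the kinases was not tested.

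Several genes listed as chaperones, substrates or partners of the kinases rose before 16 days, when none of the kinases passed the test. Of 13 measured genes for chaperones, substrates and partners of these kinases, 8 rose and 0 fell between 8 and 16 days, where 10.4% of all genes rose and 14.3% fell. Between 16 and 24 days 9 rose and 0 fell, where 13.2% of all genes rose and 20.1% fell. Between 8 and 24 days 11 rose and 2, Hspa8 and Creb1, fell, where 19.2% of all genes rose and 35.2% fell. The median change of the 13 was 0.66 and then 0.45 on the log2 scale, against -0.02 and -0.16 for all genes. Hsp90ab1, also on this list, is not analysed here.

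Among the chaperones, Tsacc, the co-chaperone that helps activate TSSK6, had values of -0.99, -0.94 and -1.05 at 8 days, 0.00, 0.42 and -0.12 at 16 days and 1.39, 1.08 and 1.32 at 24 days. The 3 ages did not overlap. Tsacc rose by 1.09 ± 0.14 and then by 1.16 ± 0.14, so that 51.5% of its change came after 16 days. Hsp90aa1, a heat shock protein that binds client kinases, rose by 0.66 ± 0.08 and then by 0.26 ± 0.08. Hspa2, the HSP70 form of spermatocytes, rose by 2.65 ± 0.10 before 16 days and by 0.45 ± 0.10 after it. Hspa1l, the HSP70 form of spermatids, changed by -0.40 ± 0.27 (adjusted p 0.370) and then rose by 3.25 ± 0.27. Its arrays were 3.63, 2.37 and 2.62 at 24 days and no higher than 0.15 at either earlier age. The constitutive form Hspa8 changed by -0.23 ± 0.12 and -0.33 ± 0.12, which did not pass the test, and it fell over the whole span by 0.56 ± 0.12 (adjusted p 0.00307). Pdpk1, a kinase that can phosphorylate TSSK3, changed by 0.26 ± 0.12 and 0.25 ± 0.12, and it rose over the whole span by 0.51 ± 0.12.

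Among the substrates and partners, Tsks, a protein phosphorylated by TSSK1 and TSSK2, passed the test between 16 and 24 days, as its kinases did. Its values were 0.00, -0.38 and -0.33 at 8 days, -0.13, 0.00 and -0.25 at 16 days and 1.17, 0.59 and 0.68 at 24 days. It changed by 0.11 ± 0.16 (adjusted p 0.779) and then rose by 0.94 ± 0.16 (adjusted p 0.00252), though the difference between its intervals did not pass the test (0.82 ± 0.28, adjusted p 0.159). Spag16, an axonemal protein that binds TSSK2, rose by 2.87 ± 0.21 and then by 1.27 ± 0.21, and Odf2, an outer dense fibre protein and partner of TSSK4, by 1.51 ± 0.16 and 1.31 ± 0.16. The histone gene H2ax rose by 0.77 ± 0.14 before 16 days and changed by -0.23 ± 0.14 after it. The cAMP response regulator Crem, which drives spermatid genes, rose by 1.66 ± 0.20 and 1.13 ± 0.20, while its relative Creb1 changed by -0.23 ± 0.12 and -0.27 ± 0.12, not called, and fell over the whole span by 0.50 ± 0.12 (adjusted p 0.00503). The phosphatase Ppp1cc, whose germ cell form is needed to make sperm, rose by 0.27 ± 0.09 and 0.37 ± 0.09. By the test of the difference between the intervals 1 of the 13, Hspa1l, changed more after 16 days (3.65 ± 0.46, adjusted p 0.00113), and 3, Hspa2, Spag16 and H2ax, changed more before it, where 2.31% of all genes were called in that direction.

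**Figure D4:**
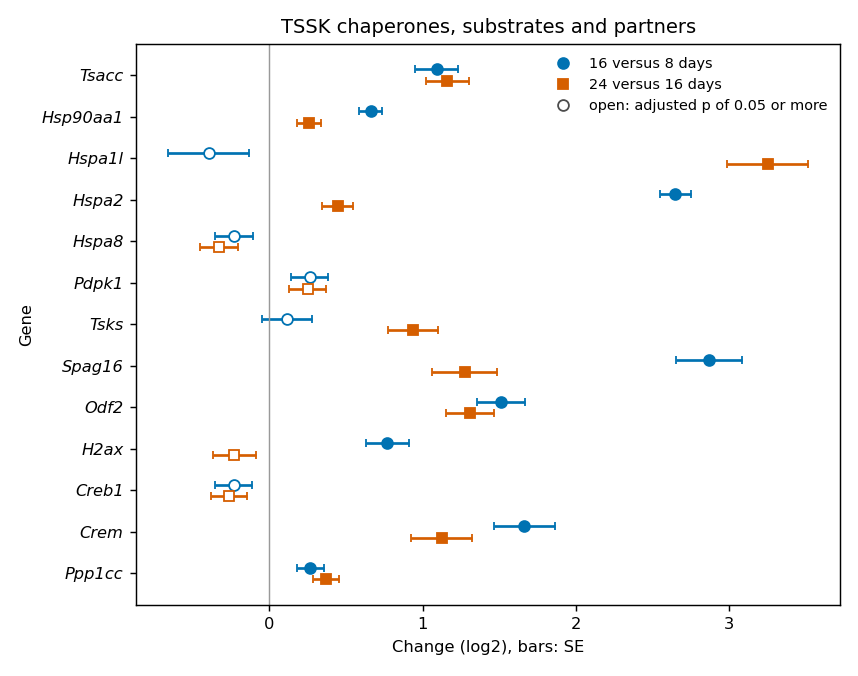
Change of 13 genes for chaperones, substrates and partners of the kinases over the first interval (circles) and the second (squares) on the log2 scale, with limma standard errors. Open symbols did not pass an adjusted p of 0.05. Tsacc, Spag16, Odf2 and Crem rose over both intervals, and Tsks and Hspa1l rose over the second.

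Other protein kinases of germ cells included genes that rose before 16 days. Of 18 measured, 7 rose and 2 fell between 8 and 16 days, where 10.4% of all genes rose and 14.3% fell. Between 16 and 24 days 11 rose and 2 fell, where 13.2% of all genes rose and 20.1% fell. Stk33, a kinase needed to shape sperm, rose by 3.57 ± 0.16 before 16 days and by 1.23 ± 0.16 after it. Mak, a kinase of spermatocytes and spermatids, rose by 2.34 ± 0.13 and 1.22 ± 0.13, Nek2, a centrosomal kinase, by 1.27 ± 0.12 and 0.43 ± 0.12, and Stk36 by 0.89 ± 0.14 and 0.90 ± 0.14. Hipk4, which acts on the spermatid head, rose only after 16 days by these tests. Its values at 24 days were 1.84, 1.28 and 1.504, while the highest earlier array was at 0.00, and it rose by 1.71 ± 0.14 after a change of -0.07 ± 0.14. The second interval exceeded the first for Hipk4 by 1.77 ± 0.24 (adjusted p 0.00185). It did so by 1.5001 ± 0.25 (adjusted p 0.00603) for Plk1, a mitotic kinase named here after its values were seen. Plk1 changed by -0.49 ± 0.14 before 16 days, a called fall (limma adjusted p 0.0326), and rose by 1.01 ± 0.14 after it. For Stk33 the second interval fell short of the first by the same test of the difference (-2.33 ± 0.27, adjusted p 0.000692). Nek1 and Prkaca are not analysed here.

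Kinases related to AMPK, in the same kinase group as the family, held more genes that fell than rose, as all genes did in the main fit. With each array centred on its median, 2861 of all genes rose and 1927 fell between 16 and 24 days. Of the 17 kinases, 1 rose and 5 fell between 8 and 16 days, where 10.4% of all genes rose and 14.3% fell. Between 16 and 24 days 2 rose and 5 fell, where 13.2% of all genes rose and 20.1% fell. Over the whole span 1 rose and 11 fell, where 19.2% of all genes rose and 35.2% fell. The 5 that fell after 16 days became 11 without replicate 1 of 8 days and replicate 2 of 16 days, in which the median of olfactory receptor genes was 0.17, and 3 without replicate 1 of 24 days. Nuak1 fell by 1.53 ± 0.28 and Nuak2 by 1.40 ± 0.16 between 8 and 24 days. Melk, a kinase of dividing cells, fell by 0.65 ± 0.11 after 16 days. Brsk1, known from neurons, rose by 0.63 ± 0.14 before 16 days and by 0.72 ± 0.14 after it.

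The nearest measured genes on either side of the kinase genes in RefSeq order rose in 1 of 10 cases between 16 and 24 days, and 1 fell, shares near the 13.2% and 20.1% of all genes. Between 16 and 24 days Dgcr2, which precedes Tssk1, changed by -0.11 ± 0.15 and Ess2, which follows Tssk2, by -0.09 ± 0.10, and neither passed the test. Beside Tssk3, Bsdc1 changed by 0.03 ± 0.09 and Marcksl1 by -0.41 ± 0.16. Beside Tssk4, Tm9sf1 fell by 0.36 ± 0.10 and Mdp1 changed by -0.15 ± 0.11. Beside Tssk5, Hgh1 rose by 0.50 ± 0.17 (adjusted p 0.0433) and Mroh1 changed by 0.24 ± 0.14 (adjusted p 0.197). Beside Tssk6, Ndufa13 changed by -0.04 ± 0.10 and Gatad2a by -0.29 ± 0.10.

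**Figure D5:**
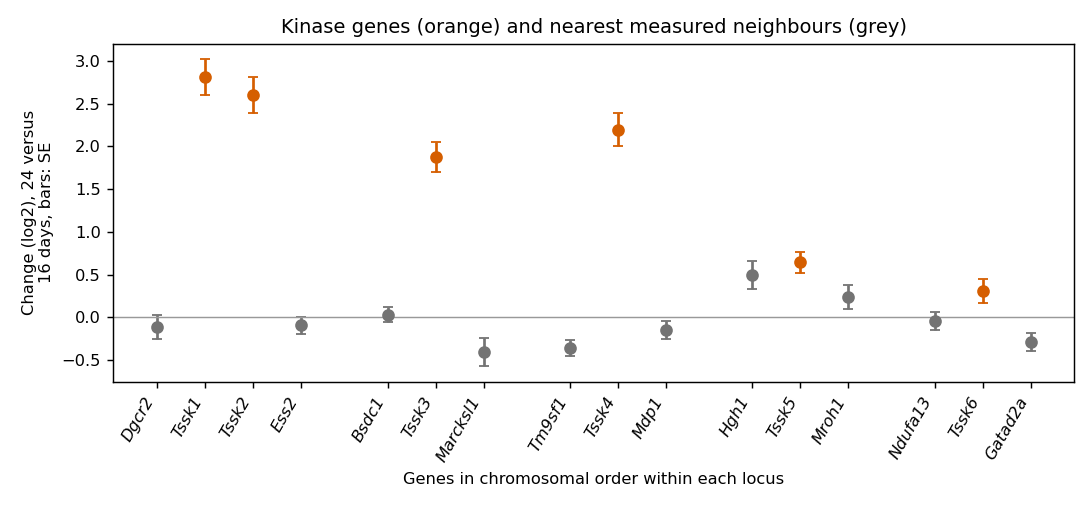
Change between 16 and 24 days on the log2 scale, with limma standard errors, of the kinase genes (orange) and of the nearest measured gene on each side (grey), in chromosomal order within each locus. Tssk1 and Tssk2 stand at 2.81 and 2.60 between Dgcr2 at -0.11 and Ess2 at -0.09.

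The genes whose values over the 9 arrays were most like those of each kinase were found by the root-mean-square difference of the log2 values, leaving out genes without a full name. For Tssk1 they were Spata3, Lpcat2b, Tex29, Lelp1 and Fam166c, with differences of 0.12 to 0.14. For Tssk2 they were Iqcm, Catsper4, Izumo3, Catsper1 and Arrdc5 (0.10 to 0.15), among them 2 subunits of the sperm calcium channel. For Tssk3 they were Tmc5, Adam34, Spata31d1d, Pkib and Cstl1 (0.11 to 0.14), and for Tssk4 Zdhhc19, Lrrc74a, Rgsl1, Selenov and ccdc198 (0.08 to 0.12). For Tssk5 they were Hemgn, Spata32, Cntnap5b, Calr3 and Amph (0.06 to 0.09), and for Tssk6 Prox1, Homez, Nlrp5, Kcnj6 and Mocs3 (0.07 to 0.09). Among the kinases, Tssk3 and Tssk4 were the closest pair (0.19), followed by Tssk5 and Tssk6 (0.25) and by Tssk1 and Tssk2 (0.26). The difference is small for any pair of genes that change little, as for Tssk5 and Tssk6, and it says nothing of level.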

How the data were processed

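Per the labels, total RNA was extracted from testis and labelled with biotin for Affymetrix whole-transcript arrays. The authors deposited log2 values of 28815 rows, centred on each row's median over the 9 arrays. Background correction, normalization, summarization and the centring step are not given in the sources used here. Every row had at least 1 blank cell and, with blanks read as 0, a median of 0, so blanks were taken as 0. Rows with 1 gene symbol in the probe table (21780) were averaged per gene. No build is named with the values, and promoters and gene order came from RefSeq (GRCm38.p6); 5 of the 6 kinase genes had a promoter there. That promoters run in the direction of transcription was checked by the place of TATAAA on both strands.

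A limma model (version 3.58.1, R 4.3.3) with 1 mean for each age was fitted to all genes over the 9 arrays by lmFit and moderated by eBayes, which gave 6 residual degrees of freedom and 3.82 prior ones. Tests were 2-sided, with Benjamini-Hochberg adjustment over all genes at 0.05, and the script was tested on simulated data. Errors given with a change are moderated standard errors from that model, and other errors are SD. The number of arrays limits the precision. Gene lists came from textbook knowledge, and the members and lists were chosen with earlier results of these data known. Named genes are the 6 kinases, all measured chaperones, substrates and partners, the up to 3 largest called changes of the other 2 kinase lists in each comparison, the nearest measured gene on each side, and the 5 genes most like each kinase. Of the cell type marker lists only counts and means are printed, which names fewer genes than that rule allows.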

Additional observations from a re-analysis of the deposited data

How the results depend on the processing

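Of 22 alternatives, including each array left out in turn, array centring, blanks left missing, robust eBayes and array weights, 22 gave 0 of the 6 kinases called between 8 and 16 days. Between 16 and 24 days 19 gave 5 and 3 gave 4, and over the whole span 18 gave 5, 3 gave 4 and 1 gave 6. The counts of 4 came from a minimum of 2-fold and from limma treat, which lost Tssk5, and from only rows with 1 blank cell, which leave out Tssk4. The 6 came from array weights, which called Tssk6. Leaving out 1 array gave 5 in each case for both comparisons. No called change of a kinase changed sign, while changes between 8 and 16 days, none of them called, did so for Tssk2, Tssk3, Tssk4 and Tssk5. Centring each array on its median raised each kinase's change by 0.03, 0.09 and 0.12 in the comparisons of 16 with 8, 24 with 16 and 24 with 8 days. It turned the 2641 genes that rose and 4004 that fell between 16 and 24 days into 2861 and 1927, and the 3825 and 7015 between 8 and 24 days into 4389 and 5236. Counts of the chaperones, substrates and partners that rose were 4 to 8 before 16 days and 3 to 9 after it, lowest under limma treat. Those of the other germ cell kinases were 3 to 7 and 3 to 11, and 0 to 8 and 0 to 11 of the kinases related to AMPK fell. The median of olfactory receptor genes was 0.17 in 2 arrays, replicate 1 of 8 days, where that of all genes was also high at 0.12, and replicate 2 of 16 days, where it was 0.02. Without these the rises after 16 days were 2.90, 2.65, 1.90, 2.30 and 0.68 for Tssk1 to Tssk5.

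No label says that replicate numbers pair the samples, and the deviations of same-numbered arrays had correlations of -0.46 to 0.20 across genes. With a replicate block on the 6 numbered arrays, 5 kinases were called between 16 and 24 days, as without the block on those arrays, a fit added after seeing the data. The test of the difference between intervals called 4 with the block and 3 without it, where Tssk3 was lost. That test called 4 kinases in 18 of 21 alternatives and 3 in the others.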
